A study of Mus musculus with 9 samples.

Results

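The heat shock families, mainly of the cytosol, nucleus and mitochondria, were examined in TAMH cells exposed to 2 bipyridyl herbicides. Members were all genes whose array annotation gave 1 symbol starting with Hspa, Hspb, Hspd, Hspe, Hsph, Hsp90, Dnaja, Dnajb or Dnajc, together with Bag3, Hsf1 and Hsf2. The residents of the endoplasmic reticulum and secretory pathway Hspa5, Hspa13, Hsp90b1, Dnajb9, Dnajb11, Dnajc3 and Dnajc10 were left out. Members were not otherwise sorted by compartment, so other proteins of the endoplasmic reticulum may remain among them. This gave 63 members of 22180 genes tested. They were picked by a rule on names, but that rule was chosen with earlier results of these data known. Hsp90ab1, Dnaja1 and Hsf1 were not analysed here, because none of the features used carried their symbol alone. Dnajb8, Dnajc17 and Dnajc19 were not analysed for the same reason.

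TAMH is a line of mouse hepatocytes derived from mice that carry a transforming growth factor alpha transgene. All cells were kept in a medium with dexamethasone, nicotinamide, insulin, transferrin and selenium, so the control cells carried these too. The groups were cells given diquat at 18 µM, cells given paraquat at 126 µM and control cells in medium alone, each for 9 h and each with 3 Affymetrix Mouse Gene 2.1 ST arrays. Expression values are log2 RMA values, on which a difference of 1 is a doubling, and they compare arrays for 1 feature but not 1 feature with another. The labels do not say whether the dishes were separate cultures, and each p-value therefore reflects array-to-array spread that may be purely technical.

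Heat shock proteins bind unfolded or newly made proteins and help them fold, reach an organelle or be degraded. Hsp70 proteins hold and release clients in a cycle driven by ATP. J-domain proteins (the Dnaj families) deliver clients and trigger ATP hydrolysis, and nucleotide exchange factors such as the Hsp110 proteins reset the cycle. Hsp60 and its lid Hsp10 form a folding chamber in mitochondria, and small heat shock proteins hold unfolding clients without ATP. When proteins unfold in the cytosol, heat shock factor 1 binds inverted repeats of nGAAn, the heat shock element, and raises transcription of Hspa1a, Hspa1b, Hsph1, Dnajb1 and their like. Diquat and paraquat accept electrons from cellular reductases and pass them to oxygen, which produces superoxide. In hepatocytes the same chaperones serve a high load of protein synthesis and mitochondrial import.

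The promoters of 4 members are shown because these genes frame the results: Hspd1 and Hspb8 were called higher under diquat, while Hsph1 and Hspa1b, classic heat shock genes, were not called higher under either compound. Each sequence runs 5′ to 3′ from 250 bases before to 50 bases after the annotated start, from RefSeq on GRCm38.p6, all on the minus strand. Capitals mark matches to the heat shock element searched below, with 2 or more adjoining units. The windows are Hspd1 at chr1:55087883-55088182, Hsph1 at chr5:149636266-149636565, Hspa1b at chr17:34959189-34959488 and Hspb8 at chr5:116422815-116423114.
Hspd1: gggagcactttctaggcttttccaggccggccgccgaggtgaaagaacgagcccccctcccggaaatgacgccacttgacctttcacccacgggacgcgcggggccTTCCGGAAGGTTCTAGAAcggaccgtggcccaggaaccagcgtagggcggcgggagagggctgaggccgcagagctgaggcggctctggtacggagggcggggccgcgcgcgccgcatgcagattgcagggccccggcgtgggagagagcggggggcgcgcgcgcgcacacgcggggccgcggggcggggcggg
Hsph1: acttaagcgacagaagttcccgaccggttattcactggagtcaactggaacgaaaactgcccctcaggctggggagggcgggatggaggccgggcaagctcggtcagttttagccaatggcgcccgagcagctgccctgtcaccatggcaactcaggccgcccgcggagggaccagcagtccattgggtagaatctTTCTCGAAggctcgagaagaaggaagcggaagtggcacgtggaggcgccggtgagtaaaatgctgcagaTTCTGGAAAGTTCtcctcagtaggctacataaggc
Hspa1b: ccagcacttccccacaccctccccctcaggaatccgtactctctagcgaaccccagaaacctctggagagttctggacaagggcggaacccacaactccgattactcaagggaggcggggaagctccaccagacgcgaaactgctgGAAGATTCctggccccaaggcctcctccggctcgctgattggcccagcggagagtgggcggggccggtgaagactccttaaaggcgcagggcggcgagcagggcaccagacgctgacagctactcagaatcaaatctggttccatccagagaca
Hspb8: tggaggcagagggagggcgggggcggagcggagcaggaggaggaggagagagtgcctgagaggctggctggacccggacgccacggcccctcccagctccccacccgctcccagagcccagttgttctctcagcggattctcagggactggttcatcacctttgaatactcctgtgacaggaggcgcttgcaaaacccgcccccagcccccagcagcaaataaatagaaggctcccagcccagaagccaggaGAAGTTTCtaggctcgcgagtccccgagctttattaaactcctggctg

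RefSeq promoter windows were found for 52 of the 63 members, 67 windows in all. The element with 3 units (TTC, GAA and TTC, or GAA, TTC and GAA, each pair separated by NN), searched on both strands, was present in 4 of the 52 members (7.69%), against 0.662% of all genes in the table. These were Hspd1, Hspe1, Hsph1 and Dnajb6. The form with 2 units, GAANNTTC or TTCNNGAA, which every match to the longer form also contains, was present in 15 of 52 (28.8%), against 17% of all genes. The antioxidant response element TGACNNNGC was present in 9 of 52 (17.3%), against 14% of all genes, and the C/EBP-ATF element TGATGNAAN in 1 of 52 (1.92%, Hspa14), against 4.5%. Hspd1 and Hspe1 face away from each other, their starts lie 216 bases apart and their windows share 285 bases, so both carry the same run of heat shock units. The windows of Hspa1a and Hspa1b matched at 296 of 300 places (98.7%), and both hold GAAGATTC starting 104 bases before the start. A match describes the letters of the window and is not a measured binding site.

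Neither herbicide was accompanied by a broad rise of the heat shock families at 9 h. Under diquat 3 members rose, Hspb8, Hspd1 and Dnajb2, and 1 fell, Dnajc9, while the other 59 did not pass the test. Scaling moved the diquat split, to 3 higher and 4 lower after quantile normalization and to 3 higher and 0 lower after median centring, and the diquat count of 4 became 1 without control replicate 1 or 3 and 2 without diquat replicate 1. These counts stand without the matching shares of all genes, so they do not show whether members moved more than other genes. Under paraquat no member rose and 1 fell, again Dnajc9. These counts read 1 feature per gene, that with the highest mean. For Hspa8, 3 other features were called higher under paraquat in a fit over all features, as given below. The changes were small: the members' log2 differences ran between -0.24 and 0.27 for diquat and between -0.37 and 0.13 for paraquat. The test was limma with Benjamini-Hochberg adjustment over all genes, at an adjusted p under 0.05.

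Read against the whole array, these counts were near or below the background. Diquat called 6.35% of members and 7.02% of all genes, with 4.13% of all genes called higher and 2.89% lower. Paraquat called 1.59% of members and 4.57% of all genes, with 2.33% higher and 2.24% lower. The median log2 change of the members was -0.01 for diquat, against -0.02 over all genes, and -0.01 for paraquat, against 0.00 over all genes. Absolute changes had a median of 0.07 for diquat and 0.06 for paraquat among members, against 0.06 and 0.04 over all genes. The 95% interval lay within 1.25-fold of no change in 57 members for diquat (90.5%, against 89.1% of all genes) and in 59 members for paraquat (93.7%, against 92% of all genes). For the remaining members the interval reached past 1.25-fold, so a larger change was not excluded with 3 arrays per group. They include 2 called changes, Dnajb2 for diquat (95% interval 0.14 to 0.40) and Dnajc9 for paraquat (-0.33 to -0.17).

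**Figure D1:**
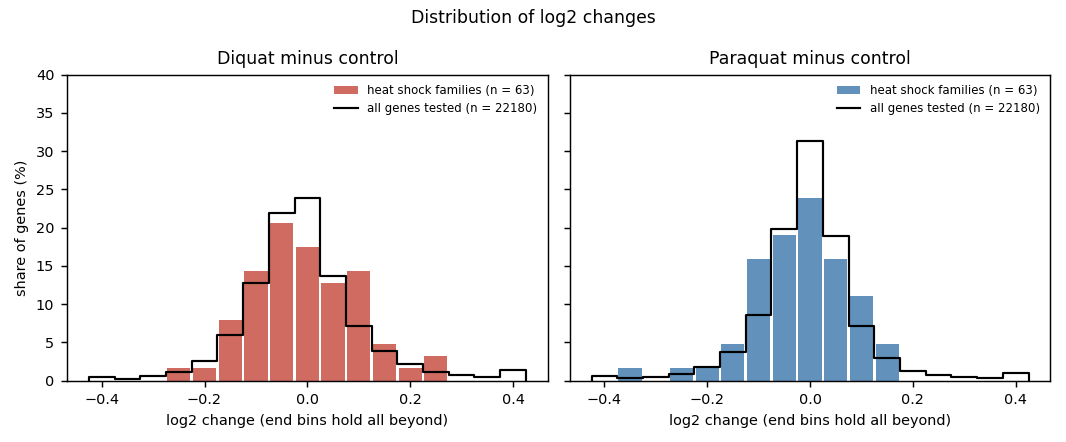
Share of genes (%) by log2 change against control, in diquat cells (left) and paraquat cells (right), for the 63 heat shock family members (filled bars) and all 22180 genes tested (line). The members follow the outline of all genes, and for paraquat no member lies above 0.13.

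**Figure D2:**
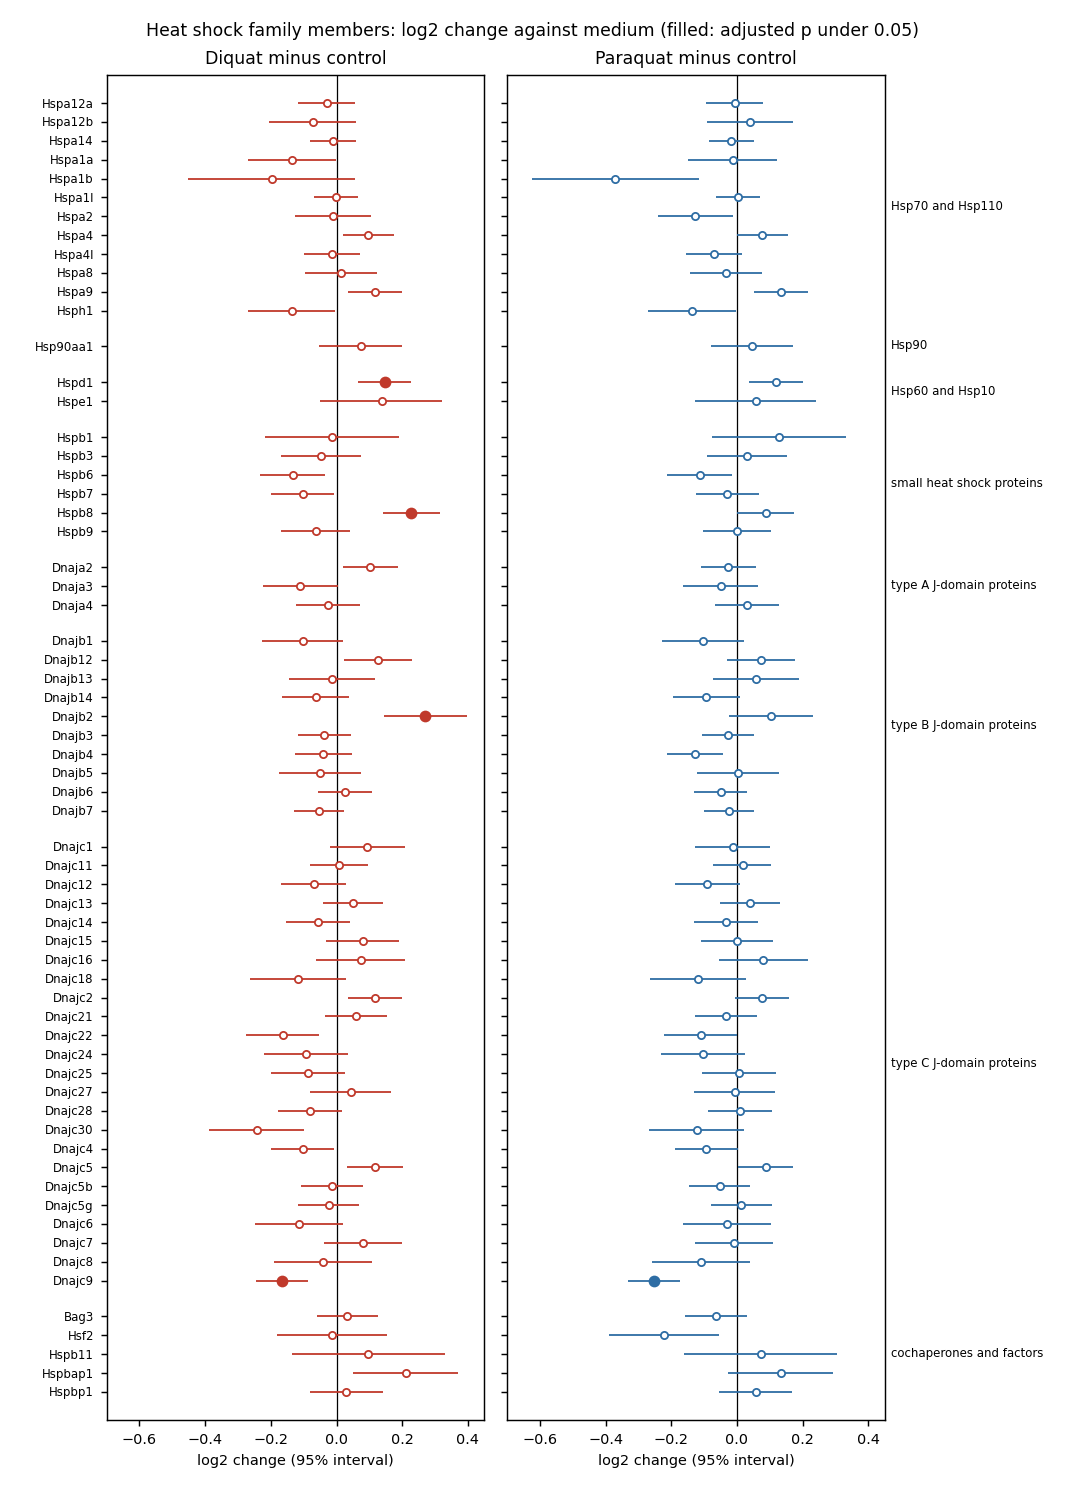
Log2 change against control of each of the 63 members by role class, for diquat (left) and paraquat (right), with points for limma estimates and lines for 95% intervals. Filled points passed an adjusted p under 0.05: Hspb8, Hspd1, Dnajb2 and Dnajc9 for diquat, and Dnajc9 for paraquat.

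A looser count, of members whose 3 treated arrays all lay outside the range of the 3 control arrays, gave 9 higher and 7 lower for diquat, together 25.4% of members against 21.3% of all genes (10.1% higher and 11.2% lower). For paraquat it gave 6 higher and 8 lower, together 22.2% of members against 19.4% of all genes (9.05% higher and 10.4% lower). Those above control were Hspd1, Hspa4, Hspa9, Hspb8, Dnaja2, Dnajb2, Dnajc2, Dnajc5 and Dnajc7 for diquat, and Hspd1, Hspa4, Hspa9, Hspb1, Dnajc2 and Dnajc5 for paraquat. Those below were Hspb7, Dnaja3, Dnajb7, Dnajc4, Dnajc6, Dnajc9 and Dnajc22 for diquat, and Hsf2, Hsph1, Hspb6, Dnajb4, Dnajb6, Dnajc6, Dnajc9 and Dnajc22 for paraquat. Both comparisons share the same control arrays, so names on both lists are not separate evidence. In RNA from bulk cultures, fewer cells of a kind and less RNA per cell cannot be told apart.

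Among the 6 small heat shock proteins, 1 rose under diquat (16.7%, against 4.13% of all genes) and none was called under paraquat (against 4.57%). Hspb8, which works with Bag3 to steer misfolded proteins to autophagy, read 10.14, 10.17 and 10.13 on the diquat arrays, 10.04, 10.01 and 9.97 on the paraquat arrays, and 9.97, 9.93 and 9.86 on the control arrays. Every diquat array lay above every control array, while the lowest paraquat array equalled the highest control array. Hspb8 rose 1.17-fold under diquat (log2 0.23 ± 0.04, SE, 95% interval 0.14 to 0.31, limma adjusted p = 0.00725, n = 3 each). Under paraquat the log2 difference was 0.09 ± 0.04 (adjusted p = 0.337). The paraquat minus diquat difference was -0.14 (95% interval -0.23 to -0.05), with an adjusted p of 0.349 in limma. Its partner Bag3, a cochaperone and heat shock factor 1 target, read 9.79, 9.82 and 9.90 under diquat, 9.75, 9.68 and 9.79 under paraquat, and 9.82, 9.79 and 9.80 in control, and neither compound gave a call (limma adjusted p = 0.698 and 0.591). Hspb8 and Bag3 were thus not called together.

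Hspb1, a broadly expressed small heat shock protein that is also tied to actin, read 8.91, 8.84 and 9.25 under diquat, 9.18, 9.11 and 9.13 under paraquat, and 9.07, 8.92 and 9.05 in control. The diquat arrays straddled the control arrays, with replicate 3 the highest, and the paraquat arrays all lay above them. The log2 difference was -0.01 for diquat (limma adjusted p = 0.952) and 0.13 for paraquat (adjusted p = 0.633), and without diquat replicate 3 the diquat value was -0.14 (adjusted p = 0.186). Hspb6, the muscle-rich Hsp20, read 8.85, 8.80 and 8.77 under diquat, 8.83, 8.82 and 8.83 under paraquat, and 8.97, 8.85 and 9.00 in control. All treated arrays but diquat replicate 1 lay below every control array, but neither difference passed (-0.13 for diquat with a limma adjusted p of 0.113, and -0.11 for paraquat with 0.241), though the diquat difference did without control replicate 2 (-0.18, adjusted p = 0.0488).

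In the mitochondrial Hsp60 and Hsp10 pair, Hspd1 rose under diquat and Hspe1 was not called. Hspd1, the chaperonin of the matrix, read 11.41, 11.38 and 11.46 under diquat, 11.40, 11.39 and 11.38 under paraquat, and 11.31, 11.27 and 11.23 in control. Both sets of treated arrays lay wholly above control. The diquat rise was 1.11-fold (log2 0.15 ± 0.04, SE, limma adjusted p = 0.0405, n = 3 each), and the paraquat difference of 0.12 ± 0.04 (95% interval 0.04 to 0.20) had an adjusted p of 0.115. The diquat call is close to the threshold: it held under 8 of 18 alternatives and was lost with the replicate block, with diquat and control arrays alone (adjusted p = 0.0945) and without any 1 array other than diquat replicate 2 (adjusted p between 0.0602 and 0.131).

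Hspe1, the lid of the same chamber and the gene that shares the Hspd1 promoter window, read 7.57, 7.60 and 7.94 under diquat, 7.63, 7.64 and 7.60 under paraquat, and 7.60, 7.59 and 7.51 in control. A single diquat array, replicate 3, stood high and the other two lay among the controls. The log2 difference was 0.14 ± 0.08 for diquat (limma adjusted p = 0.385), which became 0.02 without that array, and 0.06 for paraquat (adjusted p = 0.864).

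**Figure D3:**
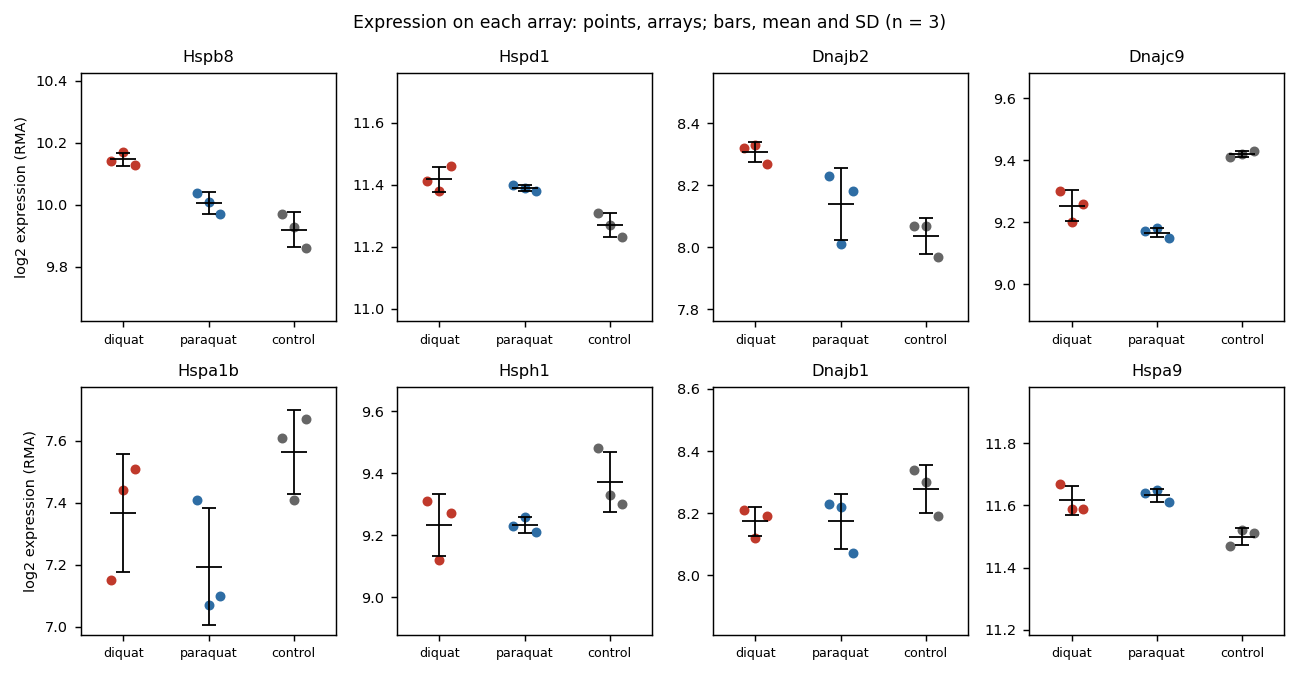
Log2 expression (RMA) of 8 members on each array, in diquat, paraquat and control cells from left to right, with points for arrays, the long bar for the mean and the whiskers for the SD (n = 3). Hspb8 and Dnajb2 are high in diquat cells, Dnajc9 is low in both treated groups, and Hspa1b, Hsph1 and Dnajb1 have no treated array above the highest control array.

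On the feature kept for each gene, none of the 12 Hsp70 and Hsp110 members passed the test for either compound, against 7.02% of all genes for diquat and 4.57% for paraquat. With so few members, the lack of a call does not set this class apart from all genes. Hspa1b, a stress-inducible cytosolic Hsp70, read 7.15, 7.44 and 7.51 under diquat, 7.41, 7.07 and 7.10 under paraquat, and 7.61, 7.41 and 7.67 in control. The treated arrays lay at or below the middle of the control arrays and spread widely. The log2 difference was -0.20 ± 0.11 for diquat (95% interval -0.45 to 0.06, limma adjusted p = 0.359) and -0.37 ± 0.11 for paraquat (-0.62 to -0.12, adjusted p = 0.12). Without paraquat replicate 1 the paraquat difference was -0.48 and passed (adjusted p = 0.046). Its neighbour and near copy Hspa1a read 4.73, 4.89 and 4.71 under diquat, 4.85, 4.85 and 5.00 under paraquat, and 4.88, 4.98 and 4.88 in control, which is below the 30th percentile of genes (5.6). The array may split signal between the near-identical copies, so the values of both are uncertain. A feature annotated to both Hspa1a and Hspa1b was among those not used, and its values were not read. Neither copy was called higher.

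Hsph1, an Hsp110 nucleotide exchange factor and heat shock factor 1 target, read 9.31, 9.12 and 9.27 under diquat, 9.23, 9.26 and 9.21 under paraquat, and 9.48, 9.33 and 9.30 in control. All paraquat arrays and 2 of 3 diquat arrays lay below all control arrays, with a log2 difference of -0.14 ± 0.06 for each compound (limma adjusted p = 0.221 for diquat and 0.314 for paraquat). Hspa4, another exchange factor of the Hsp110 group, lay above control on every treated array, at 11.21, 11.16 and 11.21 under diquat, 11.16, 11.15 and 11.21 under paraquat, and 11.07, 11.11 and 11.11 in control. Its differences of 0.10 for diquat (limma adjusted p = 0.142) and 0.08 for paraquat (adjusted p = 0.34) did not pass. The 2 exchange factors thus lay on opposite sides of control, neither with a call.

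Hspa9, the mitochondrial Hsp70 that pulls precursor proteins into the matrix, read 11.67, 11.59 and 11.59 under diquat, 11.64, 11.65 and 11.61 under paraquat, and 11.47, 11.52 and 11.51 in control. Every treated array lay above every control array. The log2 differences were 0.12 ± 0.04 for diquat (limma adjusted p = 0.0934) and 0.13 ± 0.04 for paraquat (adjusted p = 0.0756), the smallest adjusted p among members not called for paraquat. Each passed in 2 of 18 alternatives, an intensity trend with robust variance (adjusted p = 0.0321 for diquat and 0.021 for paraquat) and array weights. Over all alternatives the adjusted p lay between 0.0321 and 0.274 for diquat and between 0.021 and 0.256 for paraquat. Hspa14, a ribosome-associated Hsp70, hardly varied, at 8.59, 8.59 and 8.60 under diquat, 8.59, 8.58 and 8.59 under paraquat, and 8.59, 8.59 and 8.63 in control. Its ribosome-bound J-domain partner Dnajc2 read 9.37, 9.30 and 9.38 under diquat, 9.30, 9.30 and 9.33 under paraquat, and 9.20, 9.23 and 9.27 in control. Dnajc2 lay above control on every treated array without passing (0.12 for diquat with a limma adjusted p of 0.0962, which became 0.0493 without diquat replicate 2, and 0.08 for paraquat with 0.378). Hspa2, an Hsp70 rich in testis, differed by -0.01 under diquat and -0.13 under paraquat (limma adjusted p = 0.266 for paraquat), and Hspa4l, a further Hsp110 relative, by -0.01 under diquat and -0.07 under paraquat, with no call.

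Hspa8, the constitutive cytosolic Hsp70, depended on which of its 4 array features was read. The feature kept by the rule read 11.82, 11.73 and 11.90 under diquat, 11.81, 11.74 and 11.76 under paraquat, and 11.86, 11.79 and 11.76 in control, with overlapping groups (log2 difference 0.01 ± 0.05 for diquat, limma adjusted p = 0.907, and -0.03 ± 0.05 for paraquat, adjusted p = 0.864). The other 3 features lay higher on all paraquat arrays than on any control array. The brightest of them read 9.85, 9.77 and 9.95 under diquat, 10.16, 10.05 and 10.01 under paraquat, and 9.83, 9.56 and 9.70 in control.

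In a fit over all features these 3 passed for paraquat, with log2 differences of 0.38 ± 0.07 (limma adjusted p = 0.0163), 0.47 ± 0.11 (adjusted p = 0.0344) and 0.44 ± 0.10 (adjusted p = 0.0407). None of them passed for diquat, where the differences were 0.16, 0.28 and 0.29 (adjusted p = 0.241, 0.163 and 0.144). The last 2 features differed by at most 0.04 on any array, so they are not separate evidence. Averaging all 4 features gave 0.32 for paraquat (adjusted p = 0.0542). Whether the 3 features read Hspa8 itself or related sequences was not tested.

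**Figure D4:**
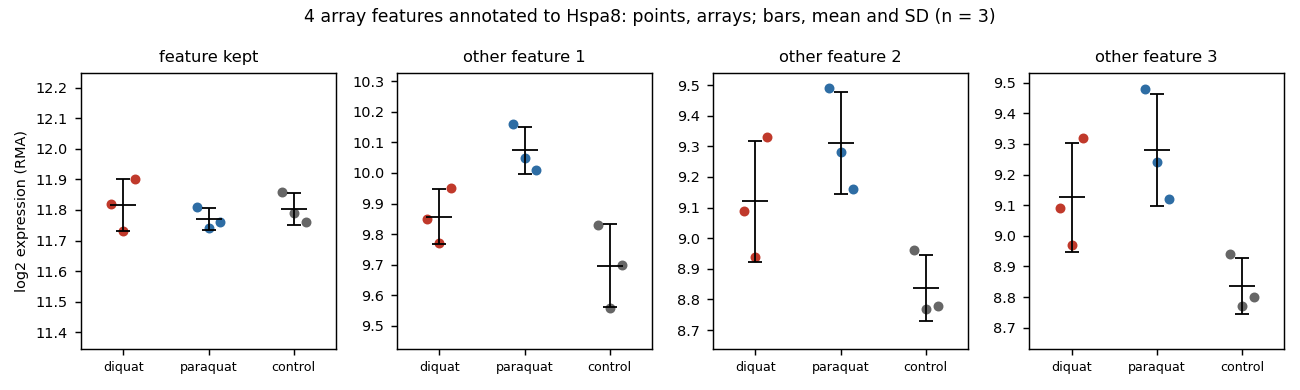
Log2 expression (RMA) of the 4 array features annotated to Hspa8 on each array, in diquat, paraquat and control cells from left to right, with points for arrays, the long bar for the mean and the whiskers for the SD (n = 3). The kept feature overlaps between all groups, whereas the paraquat arrays of the other 3 features all lie above their control arrays.

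The 1 measured Hsp90 member was not called. Hsp90aa1, the inducible cytosolic Hsp90, read 9.79, 9.76 and 9.74 under diquat, 9.74, 9.83 and 9.64 under paraquat, and 9.74, 9.74 and 9.59 in control. The groups overlapped, with log2 differences of 0.07 for diquat (limma adjusted p = 0.499) and 0.05 for paraquat (adjusted p = 0.823).

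The J-domain proteins, 3 of type A, 10 of type B and 24 of type C, made up most members. Dnajb2 rose under diquat, and Dnajc9 fell under both compounds. For diquat 10% of type B, 4.17% of type C and no type A members were called, against 7.02% of all genes. For paraquat 4.17% of type C and none of types A and B were called, against 4.57% of all genes. Dnajb2, of type B, known in human cells for carrying ubiquitin-binding motifs that pass clients to the proteasome, read 8.32, 8.33 and 8.27 under diquat, 8.23, 8.01 and 8.18 under paraquat, and 8.07, 8.07 and 7.97 in control. The diquat arrays lay above all others, and the paraquat arrays overlapped control. Dnajb2 rose 1.21-fold under diquat (log2 0.27 ± 0.06, SE, limma adjusted p = 0.0197, n = 3 each). Its paraquat difference was 0.10 ± 0.06 (adjusted p = 0.471), and the paraquat minus diquat difference was -0.17 (95% interval -0.29 to -0.04, adjusted p = 0.409). The diquat call was lost without control replicate 1, 2 or 3 or without diquat replicate 1, where the limma adjusted p lay between 0.0521 and 0.0767.

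The other 9 type B members did not pass. Dnajb1, the stress-inducible partner of cytosolic Hsp70, read 8.21, 8.12 and 8.19 under diquat, 8.23, 8.22 and 8.07 under paraquat, and 8.34, 8.30 and 8.19 in control. No treated array reached the 2 highest control arrays, and the log2 difference was -0.10 ± 0.06 for each compound (limma adjusted p = 0.32 for diquat and 0.452 for paraquat). Dnajb4, a cytosolic relative of Dnajb1, read 6.45, 6.40 and 6.40 under diquat, 6.33, 6.33 and 6.33 under paraquat, and 6.45, 6.40 and 6.52 in control. Its paraquat arrays lay below all others (log2 difference -0.13, limma adjusted p = 0.115).

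None of the 3 type A members was called. Dnaja2, a cytosolic partner of Hspa8, read 10.16, 10.14 and 10.12 under diquat, 10.06, 9.95 and 10.02 under paraquat, and 10.06, 10.03 and 10.02 in control, so that only the diquat arrays stood apart (log2 difference 0.10, limma adjusted p = 0.146). Dnaja3, the mitochondrial partner of Hspa9, read 9.98, 9.95 and 9.96 under diquat, 10.01, 10.02 and 10.04 under paraquat, and 10.01, 10.20 and 10.01 in control. The diquat arrays lay below control (-0.11, limma adjusted p = 0.244), and the control group was spread by 1 high array.

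Of the 24 type C members, Dnajc9 was the only one called, and it fell under both compounds. Dnajc9, a nuclear J-domain protein known in human cells as a cochaperone of newly made histones H3 and H4, read 9.30, 9.20 and 9.26 under diquat, 9.17, 9.18 and 9.15 under paraquat, and 9.41, 9.42 and 9.43 in control. The 3 groups did not overlap, with paraquat lowest, but the paraquat minus diquat difference did not pass. It was -0.09 (95% interval -0.17 to -0.01, limma adjusted p = 0.455). Dnajc9 was 1.19-fold lower under paraquat (log2 -0.25 ± 0.04, SE, limma adjusted p = 0.0031) and 1.12-fold lower under diquat (-0.17 ± 0.04, adjusted p = 0.0209), n = 3 each. The paraquat call held under 18 of 18 alternatives. The diquat call held under 13 of 18 and was lost with median centring (-0.13, adjusted p = 0.12), with diquat and control arrays alone and without any 1 control array (adjusted p between 0.0653 and 0.0752).

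Dnajc30, a mitochondrial J-domain protein linked in human cells to turnover of respiratory complex I, lay just outside the threshold for diquat. It read 7.62, 7.60 and 7.80 under diquat, 7.78, 7.81 and 7.79 under paraquat, and 7.99, 7.79 and 7.97 in control. Diquat replicate 3 and control replicate 2 met between the groups. The log2 difference was -0.24 ± 0.07 for diquat (limma adjusted p = 0.0516, passing in 6 of 18 alternatives, such as -0.31 with an adjusted p of 0.0174 without diquat replicate 3) and -0.12 for paraquat (adjusted p = 0.435). Dnajc5, the cysteine string protein of secretory vesicles, read 9.65, 9.65 and 9.74 under diquat, 9.64, 9.64 and 9.67 under paraquat, and 9.55, 9.60 and 9.54 in control. Every treated array was higher than every control array, though neither difference passed (0.12 for diquat with a limma adjusted p of 0.105, and 0.09 for paraquat with 0.314).

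The 5 cochaperones and factors, a class that takes in genes matched by name only, gave no call, too few genes to differ from the background. Hsf2, a second heat shock factor, read 8.38, 8.38 and 8.61 under diquat, 8.38, 8.14 and 8.22 under paraquat, and 8.53, 8.42 and 8.46 in control. The paraquat arrays lay below control (log2 difference -0.22 ± 0.08, limma adjusted p = 0.163), and diquat replicate 3 stood above the other diquat arrays (-0.01 for diquat, adjusted p = 0.941, and -0.09 without that array). Hspbap1, a protein that binds Hspb1, read 6.28, 6.06 and 6.32 under diquat, 6.19, 6.07 and 6.17 under paraquat, and 6.10, 5.92 and 6.01 in control. Its difference was 0.21 ± 0.07 for diquat (limma adjusted p = 0.124) and 0.13 for paraquat (adjusted p = 0.454), and the diquat difference passed without diquat replicate 2 (0.29, adjusted p = 0.0212).

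Set directly against each other, paraquat and diquat cells gave 0 calls among members by limma, where 0% of all genes were called. At an unadjusted limma p under 0.05 there were 8 of 63 members and 2371 of 22180 genes, similar shares. The smallest adjusted p among members was 0.349, and the differences ran between -0.21 and 0.14. The paraquat minus diquat interval lay within 1.25-fold in 60 members (95.2%, against 94.6% of all genes). Paraquat arrays lay wholly above diquat arrays for 2 members and wholly below for 7, 14.3% of members against 10.5% of all genes (5.36% higher and 5.18% lower). The doses were unlike, 126 µM against 18 µM, so this compares the conditions as given and not the compounds at 1 dose.

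The calls can be set beside the promoter matches. Of the 4 members with 3 units, 1 was called for diquat (25%, Hspd1, which rose), against 3 of the 48 without it (6.25%) and 7.02% of all genes, and their diquat median was 0.08, against -0.03 without. Of the 15 with 2 units, 2 were called for diquat (13.3%, Hspd1 and Hspb8, which rose), against 2 of the 37 without it (5.41%), and their median was -0.02, against -0.01 without. For paraquat no member with either form was called, against 1 without it (Dnajc9), with medians of 0.00 for 3 units and -0.01 for 2 units, against -0.01 without each. The members with an element are few, Hspd1 and Hspe1 share theirs, and these differences were not tested.

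Other genes of the pathway were read from lists of known chaperone genes. Among 22 measured targets of heat shock factor 1, which include members, 3 rose under diquat (Ier5, Hspb8 and Hspd1) and 1 under paraquat (Ier5). These were 13.6% of the list for diquat, against 4.13% of all genes called higher, and 4.55% for paraquat, against 2.33%. None fell, and the median was 0.01 for diquat and -0.02 for paraquat. The list was chosen with earlier results of these data known, so its shares only describe it. Ier5, an immediate early gene whose product binds heat shock factor 1, read 8.75, 8.85 and 8.72 under diquat, 8.77, 8.73 and 8.73 under paraquat, and 8.42, 8.33 and 8.39 in control. It stood clear of control under both compounds (log2 0.39 ± 0.04 for diquat, limma adjusted p = 0.000521, and 0.36 ± 0.04 for paraquat, adjusted p = 0.00113).

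Among 21 measured mitochondrial chaperones, proteases and their regulator, 2 rose under each compound (9.52%, against 4.13% of all genes called higher for diquat and 2.33% for paraquat) and none fell. The median was 0.03 for diquat and 0.02 for paraquat, and 7 of the 21 lay wholly above control under each compound (33.3%, against 10.1% of all genes for diquat and 9.05% for paraquat). This list includes members, and Hspd1 and Hspa9, described above, are counted again here under both compounds. It was also chosen with earlier results of these data known, and both comparisons share the control arrays, so its shares only describe it. Atf5, the transcription factor tied to the mitochondrial unfolded protein response, read 9.67, 9.80 and 9.74 under diquat, 9.75, 9.83 and 9.80 under paraquat, and 9.38, 9.31 and 9.41 in control. It rose under both (log2 0.37 ± 0.05 for diquat, limma adjusted p = 0.000948, and 0.43 ± 0.05 for paraquat, adjusted p = 0.000553). The other rises were Hspd1 for diquat and, for paraquat, Grpel2, an exchange factor for mitochondrial Hsp70 (0.19, limma adjusted p = 0.0284).

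Of 26 measured cochaperones outside the families, none was called for diquat (against 7.02% of all genes). Under paraquat Bag1 fell (3.85% called, against 4.57%). Bag1, an Hsp70 exchange factor, read 8.75, 8.73 and 8.75 under diquat, 8.65, 8.52 and 8.74 under paraquat, and 8.90, 8.82 and 8.86 in control (paraquat log2 difference -0.22 ± 0.05, limma adjusted p = 0.0396). None of 13 subunits of the cytosolic chaperonin TRiC and of prefoldin was called for either compound, against the same shares of all genes. The 7 endoplasmic reticulum relatives left out by the rule gave no call either, with medians of -0.09 for diquat and -0.13 for paraquat. Under paraquat 5 of these 7 lay wholly below control (71.4%) and 1 above, against 8 of the 63 heat shock members (12.7%) and 10.4% of all genes below, a difference that was not tested.

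Alb, the plasma protein albumin and a defining hepatocyte marker, averaged 12.73 in all 3 groups, near the top of the array's range. Of 13 hepatocyte markers, however, 6 fell under diquat (46.2%, against 2.89% of all genes) and 4 under paraquat (30.8%, against 2.24%). Their median distance from the control mean was -0.27 to -0.20 on diquat arrays, -0.16 to -0.11 on paraquat arrays and -0.02 to 0.02 on control arrays. The same distance for the heat shock members was -0.01 on every diquat array, -0.03 to -0.01 on paraquat arrays and -0.01 to 0.01 on control arrays. Of 6 macrophage markers 1 (Cd68) rose under diquat (16.7%, against 4.13% of all genes) and none under paraquat (against 2.33%). Adgre1, which defines these cells, averaged 5.54 to 5.55 in treated and 5.53 in control cells. Of 5 cholangiocyte and progenitor markers 1 rose (20%) and 2 fell (40%) under diquat, and 1 rose under paraquat (20%). The 7 stellate and 6 endothelial markers gave no call, where 7.02% of all genes were called for diquat and 4.57% for paraquat. Arrays of 1 group differed from each other by a root mean square of 0.102 to 0.134 in diquat, 0.0863 to 0.0878 in paraquat and 0.0714 to 0.0821 in control, with diquat replicate 3 the farthest from its group. The part of these differences in the members' values was not tested.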

How the data were processed

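RNA of 9 arrays was measured on Affymetrix Mouse Gene 2.1 ST strips. The deposited values are log2 expression, made by the authors with Affymetrix Expression Console 1.1 and RMA, per the submitters' processing notes. The sources used here do not state its settings, and detection calls were not used. Groups and replicate numbers came from titles (some descriptions repeat the number 1). Of 34472 features, 23521 carried 1 gene symbol in the platform annotation, and the feature with the highest mean over 9 arrays was kept for each of 22180 genes. All 63 members matched RefSeq by Entrez identifier. A further 15 features that carry a symbol fitting the rule among several symbols were not used. Some of these symbols, namely Dnaja1, Dnajb8, Dnajc17 and Dnajc19, are therefore not among the 63 members.

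The 9 arrays were fitted together in limma 3.58.1 (R 4.3.3), with 1 mean per group, lmFit and eBayes, tested first on simulated data. P-values were Benjamini-Hochberg adjusted over all genes at 0.05. Members and gene lists were chosen with earlier results of these data known, so lists are described by counts and medians only. Members were named if called, if they had the largest rise or fall of a role class, or if they belonged to a panel of main chaperones. Alternatives were a replicate block, an intensity trend with robust variance, a filter on dim genes (under 5.6), median centring, quantile normalization, 2 groups alone, the mean of features, all features, array weights and each array left out. Protein sequences were not used here.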

Additional observations from a re-analysis of the deposited data

How the results depend on the processing

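With 3 arrays per group, small changes of single members lie near the threshold. The 4 members called for diquat became 7 with quantile normalization (3 higher, 4 lower, 11.1% of members against 8.35% of all genes) and 2 with diquat and control arrays alone, and leaving out each array gave 1 to 6: 1 without control replicate 1 or 3, 2 without diquat replicate 1 and 6 without diquat replicate 2. Median centring left 3, all higher. The 1 member called for paraquat became 3 with trend and robust variance and 2 with array weights, and leaving out each array gave 1 to 2 (2 without paraquat replicate 1). Paraquat against diquat gave 0 in every alternative run. Apart from quantile normalization, the counts here and with the replicate block below are given without the share of all genes. Whether members moved more than other genes thus cannot be read from them.

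The diquat median of -0.013 became 0.023 with median centring and -0.023 with the mean of features, and ran between -0.023 and -0.003 with arrays left out, against -0.022 to -0.003 for paraquat. The paraquat minus diquat median of -0.01 became -0.02 with the filter on dim genes, -0.04 with median centring, and -0.003 with quantile normalization or the mean of features, and ran between -0.027 and 0.005 with arrays left out. Median centring shifts all genes of an array by the same amount, so that move is not particular to the members. The cause of the other moves was not tested. The 5 calls of single members, each under 18 alternatives, gave 90 values, of which 19 lost the call. Members not called gained 18 calls, in 10 combinations of member and contrast. These gains come from many more values than the 90, so the losses and gains are not comparable rates.

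Same-numbered arrays did not deviate together (correlations between -0.192 and 0.198, against -0.331 to 0.284 for other pairs). With the replicate block 5 members were called for diquat, 1 for paraquat and 0 between the compounds, and the medians were -0.01 for each contrast. For diquat the block took away the call of Hspd1 (limma adjusted p = 0.0736) and gave one to Dnajc30 (-0.24, adjusted p = 0.0475) and Hspbap1 (0.21, adjusted p = 0.0319).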
